A study of Mus musculus with 16 samples.

Results

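Cathepsins are proteases of the endosome and lysosome, and cystatin C is a small protein that blocks the cysteine type. Here 10 genes of this system were followed in mouse microglia: the cysteine cathepsins Ctsb, Ctsc, Ctsh, Ctsl, Ctss and Ctsz, the aspartic cathepsins Ctsd and Ctse, the serine carboxypeptidase Ctsa and the inhibitor Cst3. They were taken by gene symbol from count files with 53700 gene lines each, of which 29343 had a count in at least 1 library. All 10 were found, and all 10 passed the filter on low counts that left 17090 genes for testing. The names stand for Ensembl genes ENSMUSG00000021939 (Ctsb), ENSMUSG00000030560 (Ctsc), ENSMUSG00000032359 (Ctsh), ENSMUSG00000021477 (Ctsl), ENSMUSG00000038642 (Ctss), ENSMUSG00000016256 (Ctsz), ENSMUSG00000007891 (Ctsd), ENSMUSG00000004552 (Ctse), ENSMUSG00000017760 (Ctsa) and ENSMUSG00000027447 (Cst3).

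Microglia, the macrophages of the brain tissue, were sorted from whole brain of Ercc1 KO mice and of their controls (WT) at 6 and 12 weeks of age, all on a C57Bl6J/FVB cross. Ercc1 encodes a subunit of an endonuclease of DNA repair, and its loss gives a mouse that ages early. Brains were dissociated mechanically in the cold, the sort kept viable CD11b-high, CD45-intermediate and Ly6c-negative cells, and RNA of each sample was sequenced from low-input libraries. The 4 groups were KO at 6 weeks, WT at 6 weeks, KO at 12 weeks and WT at 12 weeks, with 4 libraries each. In both 6-week groups 2 libraries were labelled male and 2 female, and in both 12-week groups 3 were male and 1 was female. The labels do not say whether the libraries of a group came from separate animals, so p-values measure the spread between these samples.

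Cathepsins are made as inactive precursors, sorted to lysosomes mainly through mannose 6-phosphate receptors, and matured in the acid lumen. Microglia use them to degrade engulfed material and to trim antigens and the invariant chain for presentation on MHC class II. Cystatin C is secreted in large amounts in the brain, binds cysteine cathepsins tightly and does not block the aspartic or serine types.

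Libraries held between 7882182 and 22142972 counts, with all 4 of 12-week KO at or below 9653663. Levels are given in CPM, the field's usual unit of counts relative to library size, with library sizes scaled by the TMM method. Ercc1 itself had 3.63 ± 0.803 CPM in 6-week KO libraries and 18.8 ± 7.91 CPM in 6-week WT, and 4.28 ± 2.80 CPM in 12-week KO libraries and 20.7 ± 19.2 CPM in 12-week WT (SD, n = 4 each). The 12-week WT library labelled 5_6 is labelled male but had 339.5 CPM of Xist beside 109 CPM summed over 4 Y-linked genes, while every other library held mainly the transcripts of its labelled sex. Replicates 3 and 8 of 12-week WT were the least like their group, with a mean correlation of log2 CPM (+ 1) to the other libraries of the group of 0.891 and 0.886 across genes, against 0.938 to 0.945 in 6-week WT. Summed over 7 markers, microglial transcripts reached 46232 to 47929 CPM in 12-week KO and 57182 to 64448 CPM in 12-week WT, with 52895 to 62141 CPM in 6-week KO and 63383 to 70174 CPM in 6-week WT. Transcripts of 7 markers of border-associated macrophages, which lie at the brain surface and around vessels, summed to 130 to 291 CPM in 6-week KO and 51.1 to 94.4 CPM in 6-week WT, and to 112 to 187 CPM in 12-week KO and 7.79 to 54.2 CPM in 12-week WT. Every library of KO lay above every library of WT in that sum at both ages. At either age 7 of 7 of these markers had a positive log2 change (0 passed the test at 6 weeks and 1 at 12 weeks, edgeR). DESeq2 called 1 of them at 6 weeks and 4 at 12 weeks, and 4 and 5 had an unadjusted p under 0.05 by edgeR. The part of border-associated macrophages in the results was not tested. The 5 monocyte markers summed to 8.11 to 29.7 CPM in 6-week KO and 5.93 to 17.9 CPM in 6-week WT, and to 13.1 to 27.7 CPM in 12-week KO and 1.08 to 10.7 CPM in 12-week WT, without overlap at 12 weeks. Of these, Ly6c2 and Chil3 had no count in either 12-week group, while Ccr2 had 9.85 CPM in 12-week KO and 4.14 CPM in 12-week WT, and Plac8 7.93 CPM in 12-week KO and 0.749 CPM in 12-week WT. Both of these were tested and had positive log2 changes at either age; 0 passed by edgeR, and DESeq2 called 0 at 6 weeks and 1 at 12 weeks. At an unadjusted p under 0.05 there were 0 at 6 weeks and 1 at 12 weeks. The part of monocytes in the results was not tested. Mitochondrially encoded genes took 0.328% to 0.405% of counts in 6-week KO, 0.182% to 0.253% in 6-week WT, 0.491% to 0.680% in 12-week KO and 0.276% to 0.385% in 12-week WT, and the part of this difference in the results was not tested either.

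Levels per length were highest for the inhibitor. Divided by the length of the main annotated transcript, Cst3 averaged 28869 CPM per kb in 6-week KO, 29502 in 6-week WT, 27460 in 12-week KO and 33169 in 12-week WT, which placed it at rank 1 of all tested genes in 3 groups and at rank 2 in 6-week WT. Ctss followed in every group, with 9583 CPM per kb in 6-week KO, 6985 in 6-week WT, 11337 in 12-week KO and 7319 in 12-week WT. Below it came Ctsd, Ctsz and Ctsb, and these 3 did not overlap with each other in CPM per kb except for Ctsd and Ctsz in 12-week KO, where Ctsd averaged 2759 and Ctsz 2586 CPM per kb. Ctsa and Ctsc took the next places and overlapped in every group except 6-week WT. Ctsh and Ctsl were lower, and their order depends on the transcript length taken for Ctsl: with its longest principal transcript of 6168 bases Ctsl averaged 136 CPM per kb in 6-week KO, and with the shortest of 1971 bases it averaged 426 CPM per kb, against 345 CPM per kb for Ctsh. Ctse was far below the others, with 4.46 CPM per kb in 6-week KO, 0.645 in 6-week WT, 7.87 in 12-week KO and 0.885 in 12-week WT.

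The whole set took a visible part of the libraries. The 9 cathepsins made up 3.44% ± 0.181 of all counts in 6-week KO and 2.43% ± 0.0770 in 6-week WT, and 3.93% ± 0.286 in 12-week KO and 2.43% ± 0.0975 in 12-week WT (SD, n = 4 each). Cst3 alone held 2.42% ± 0.202 in 6-week KO and 2.50% ± 0.142 in 6-week WT, and 2.39% ± 0.212 in 12-week KO and 2.91% ± 0.135 in 12-week WT. In sorted bulk samples a change in the mix of cells and a change of RNA per cell cannot be told apart.

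**Figure D1:**
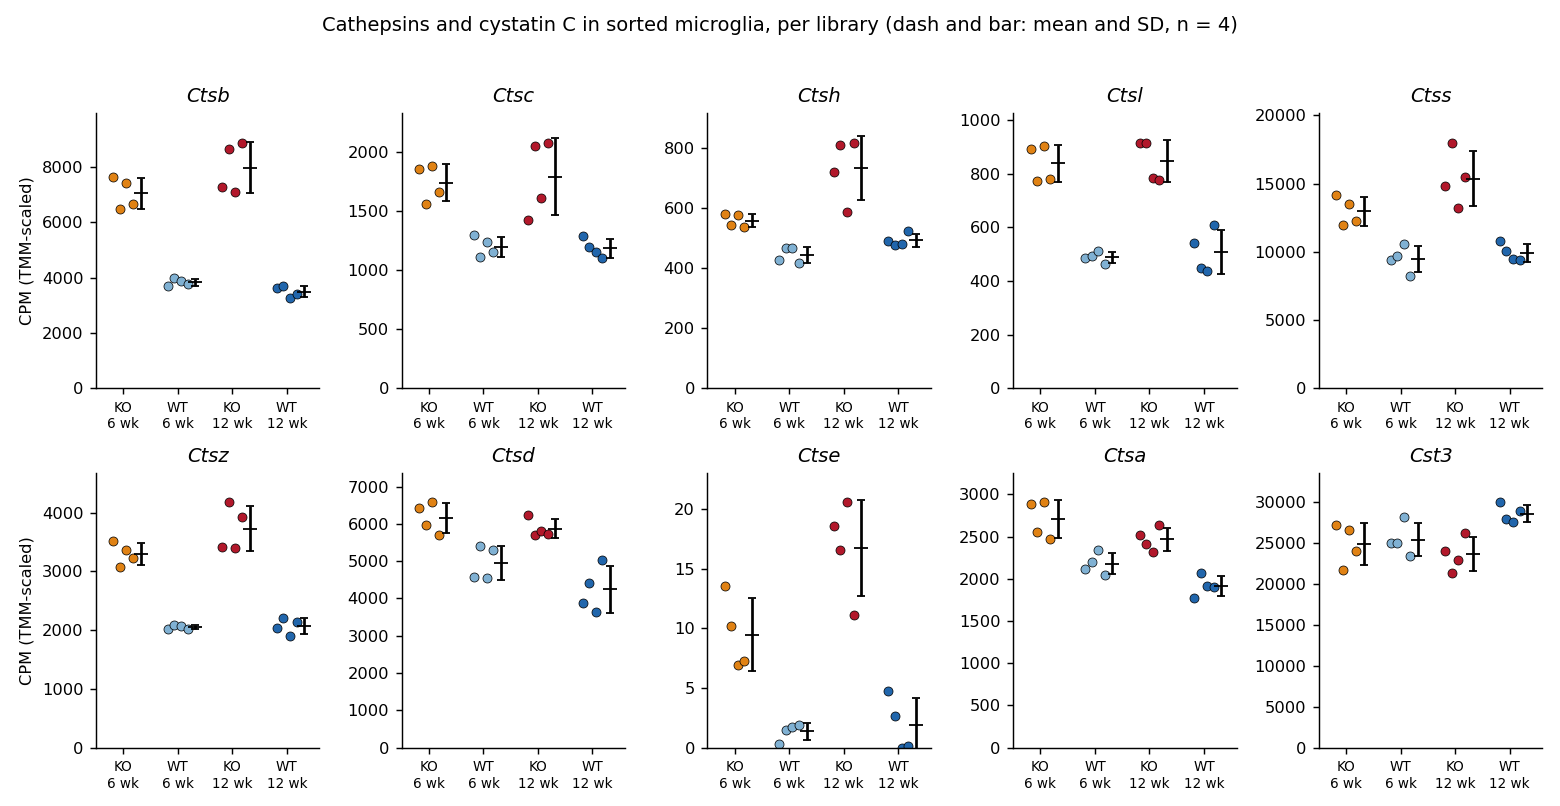
Levels of the 10 genes in CPM (TMM-scaled) on linear axes from 0, with 1 point per library and the mean and SD of 4 libraries beside each group. The 4 KO libraries lie above the 4 WT libraries of the same age for each of the 9 cathepsins, while Cst3 overlaps at 6 weeks and lies lower in KO at 12 weeks.

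Promoter sequences were at hand in RefSeq (build GRCm38.p6, not the build of the counts) for 7 of the 10 genes, in 8 windows of 250 bases before and 50 bases after a transcription start. Lysosomal genes often carry an E-box-like element bound by TFEB and its relatives. It was searched here as CACGTG and in the longer form TCACGTGA, which contains it. The other motif, GAAANNGAA, is a core of the interferon response elements that IRF factors bind, and it was searched because the series title names IRF7 and IRF9. Searched on both strands, CACGTG was present in 3 of the 8 windows (Ctsa, Ctsd and Ctsl) and in 7.15% of 32851 windows of all genes, TCACGTGA in 2 of the 8 (Ctsa and Ctsd) and in 0.974% of all, and GAAANNGAA in 1 of the 8 (Ctss) and in 8.56% of all. Each stretch below has 60 bases, runs 5′ to 3′ on the gene's strand, and has the motif in capitals; base -1 is the last before the start. Ctsd comes from chr7:142387892-142387951 (minus strand, motif at -99 to -92), Ctsa from chr2:164833713-164833772 (plus strand, the second of 2 starts, motif at -13 to -6), Ctsl from chr13:64370711-64370770 (minus strand, motif at -236 to -231) and Ctss from chr3:95526726-95526785 (plus strand, motif at -21 to -13).
Ctsd: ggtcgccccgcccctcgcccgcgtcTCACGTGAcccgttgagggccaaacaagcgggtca
Ctsa: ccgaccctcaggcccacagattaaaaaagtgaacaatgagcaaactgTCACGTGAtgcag
Ctsl: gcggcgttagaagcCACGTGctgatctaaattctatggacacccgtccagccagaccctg
Ctss: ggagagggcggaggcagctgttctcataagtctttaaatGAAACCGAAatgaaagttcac
Ctsd had a second CACGTG at -245. The second Ctsa window had TCACGTGA again just after the start, at 5. In the windows of Ctsc, Ctsz and Cst3 none of these letters was found. No window was at hand for Ctsb, Ctsh and Ctse, so these were not searched. A match is a description of the letters and shows no binding, and any part of these motifs in the changes was not tested.

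KO was compared with WT at each age to ask what the loss of Ercc1 does to the protease system. At 6 weeks 5 of the 10 genes were higher in KO at an adjusted p under 0.05 (Ctsb, Ctsz, Ctsl, Ctss and Ctsc) and 0 were lower, by edgeR's quasi-likelihood test with Benjamini-Hochberg adjustment over all 17090 genes. Among all genes tested, 0.796% were higher and 0.0761% were lower at that threshold. At 12 weeks 8 of the 10 were higher in KO (those 5 with Ctsh, Ctsd and Ctsa) and 0 were lower, against 2.03% higher and 0.954% lower among all genes. At an unadjusted p under 0.05 there were 9 members at 6 weeks and 10 at 12 weeks, where Cst3 had a negative change. The share of all genes at that unadjusted threshold was not counted. DESeq2 called 8 of the 10 at 6 weeks and 9 at 12 weeks. Among all genes to which it gave an adjusted p, it called 366 of 12732 at 6 weeks and 1158 of 16804 at 12 weeks, in either direction. The median log2 change of the 10 genes was 0.50 at 6 weeks and 0.61 at 12 weeks, against -0.02 and -0.03 over all genes tested. The groups did not overlap for 9 of the 10 genes at 6 weeks, all higher in KO, and at 12 weeks for 9 higher and 1 lower, Cst3. Over all genes, the groups did not overlap for 4.92% higher and 2.96% lower at 6 weeks, and for 5.13% higher and 3.08% lower at 12 weeks.

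**Figure D2:**
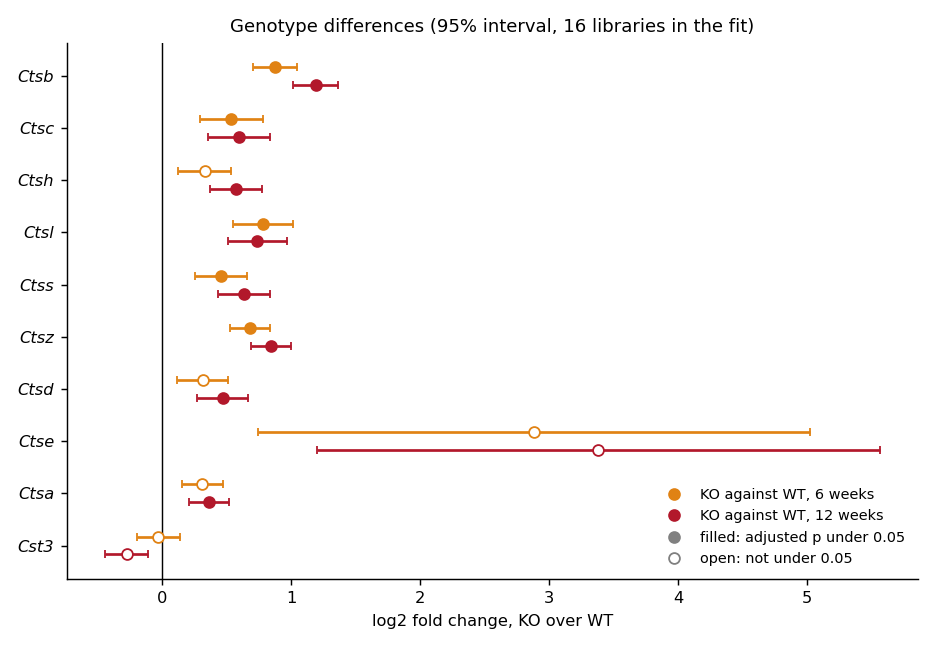
Log2 fold change of KO over WT at 6 and 12 weeks from edgeR's quasi-likelihood fit to 16 libraries, with a 95% interval, for each of the 10 genes. Filled points pass an adjusted p of 0.05: 5 genes at 6 weeks and 8 at 12 weeks, with Ctsb at 0.88 and 1.19, while the intervals of Ctse are wide and Cst3 lies at -0.03 and -0.27.

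Among the cysteine cathepsins, Ctsb, which can act both within chains and as a dipeptide-removing carboxypeptidase, changed most among the called members. It had 7638, 6477, 7425 and 6667 CPM in 6-week KO libraries, against 3704, 3991, 3879 and 3775 CPM in 6-week WT. At 12 weeks it had 7268, 8652, 7092 and 8880 CPM in KO libraries, against 3614, 3702, 3263 and 3401 CPM in WT. The lowest KO library stood far above the highest WT library at both ages. The log2 change was 0.88 ± 0.08 (SE) at 6 weeks (adjusted p = 4.65e-05, edgeR) and 1.19 ± 0.08 at 12 weeks (adjusted p = 4.69e-07, edgeR), which is 1.84-fold and 2.28-fold. The call held with each of the 8 libraries of a comparison left out in turn, at both ages.

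Ctsz, a carboxypeptidase that removes single residues, moved in the same direction. Its levels were 3509, 3072, 3356 and 3220 CPM in 6-week KO libraries, against 2013, 2083, 2067 and 2022 CPM in 6-week WT. In 12-week KO libraries they were 3411, 4173, 3404 and 3916 CPM, against 2030, 2211, 1908 and 2140 CPM in 12-week WT. All KO libraries lay above all WT libraries, and the 4 WT libraries at 6 weeks were close to each other, with a mean of 2046 ± 34.1 CPM (SD, n = 4). The log2 change was 0.68 ± 0.07 at 6 weeks (adjusted p = 0.000131, edgeR) and 0.85 ± 0.07 at 12 weeks (adjusted p = 6.52e-06, edgeR).

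Ctsl, an endopeptidase of the lysosome, stood at 894, 774, 905 and 782 CPM in 6-week KO libraries, against 485, 492, 511 and 462 CPM in 6-week WT. At 12 weeks the values were 914, 916, 786 and 777 CPM in KO and 542, 449, 436 and 608 CPM in WT. No KO library reached down to a WT library, and WT replicates 3 and 8 were the upper pair of their group at 12 weeks. The log2 change was 0.78 ± 0.11 at 6 weeks (adjusted p = 0.00146, edgeR) and 0.74 ± 0.11 at 12 weeks (adjusted p = 0.000958, edgeR). The placental relatives of Ctsl, such as Cts3, Cts6 and Ctsj, had a count of 0 over the 16 libraries.

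Ctss, which trims the invariant chain in antigen-presenting cells and stays active at neutral pH, had the most counts of the 9 cathepsins. It reached 14195, 11972, 13542 and 12229 CPM in 6-week KO libraries, against 9421, 9657, 10552 and 8230 CPM in 6-week WT. In 12-week KO it reached 14812, 18000, 13180 and 15453 CPM, against 10763, 10026, 9507 and 9373 CPM in 12-week WT. The groups did not overlap at either age, and KO replicate 2 at 12 weeks was the highest library. The log2 change was 0.46 ± 0.09 at 6 weeks (adjusted p = 0.0307, edgeR) and 0.63 ± 0.09 at 12 weeks (adjusted p = 0.00109, edgeR). At 6 weeks the call held in 2 of 8 fits with a library left out, those without WT replicate 3 (adjusted p = 0.0395) and without KO replicate 2 (adjusted p = 0.0466). It was lost without any of the other 6, where the adjusted p reached 0.153. At 12 weeks it held in 8 of 8 but was lost with a term for the replicate number (adjusted p = 0.122, edgeR).

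Ctsc, also named dipeptidyl peptidase I, activates serine proteases by removing dipeptides. Its levels were 1859, 1564, 1887 and 1664 CPM in 6-week KO libraries, against 1298, 1110, 1244 and 1153 CPM in 6-week WT. At 12 weeks KO libraries had 1426, 2057, 1615 and 2082 CPM, against 1289, 1197, 1153 and 1104 CPM in WT. KO replicates 2 and 4 were high at 12 weeks, and the lowest KO library was still above the highest WT library. The log2 change was 0.54 ± 0.11 at 6 weeks (adjusted p = 0.0342, edgeR) and 0.60 ± 0.11 at 12 weeks (adjusted p = 0.0075, edgeR). The 6-week call was lost with any of the 8 libraries left out (adjusted p = 0.0556 to 0.155), and the 12-week call was lost when only the 2 groups compared entered the fit (adjusted p = 0.0797). With a term for the replicate number both calls were lost (adjusted p = 0.079 at 6 weeks and 0.231 at 12 weeks, edgeR).

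Ctsh, an aminopeptidase, had the smallest difference among the cysteine cathepsins at 6 weeks. It had 578, 542, 576 and 535 CPM in 6-week KO libraries, against 427, 465, 465 and 416 CPM in 6-week WT. At 12 weeks it had 719, 810, 586 and 817 CPM in KO libraries, against 488, 477, 479 and 524 CPM in WT. The groups were apart at both ages. The log2 change of 0.33 ± 0.10 at 6 weeks did not pass the test (95% interval 0.13 to 0.53, adjusted p = 0.194, edgeR), though DESeq2 called it (adjusted p = 0.041). That of 0.57 ± 0.10 at 12 weeks passed (adjusted p = 0.00289, edgeR), but not with a term for the replicate number (adjusted p = 0.154, edgeR).

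Turning to the aspartic type, Ctsd is the main aspartic protease of the lysosome. It had 6413, 5964, 6577 and 5703 CPM in 6-week KO libraries, against 4586, 5395, 4539 and 5307 CPM in 6-week WT. At 12 weeks there were 6235, 5693, 5816 and 5728 CPM in KO, against 3889, 4403, 3633 and 5043 CPM in WT. WT replicates spread more than KO replicates at 12 weeks, and the groups did not overlap. At 6 weeks the log2 change was 0.31 ± 0.09 (95% interval 0.12 to 0.51, adjusted p = 0.214, edgeR), which did not pass, though it did without the filter on low counts (adjusted p = 0.0132, edgeR). At 12 weeks it was 0.47 ± 0.09 and passed (adjusted p = 0.0109, edgeR), but not with only the 2 groups compared in the fit (adjusted p = 0.0687). Nor did it pass with a term for the replicate number (adjusted p = 0.0827, edgeR).

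Ctse, an aspartic protease of endosomes, was the scarcest member, and its counts show how little material the test had. The 4 libraries held 139, 177, 65 and 126 counts in 6-week KO, against 3, 13, 22 and 16 counts in 6-week WT. At 12 weeks they held 184, 156, 167 and 89 counts in KO, against 44, 28, 0 and 1 counts in WT. As levels these were 6.93 to 13.5 CPM in 6-week KO against 0.323 to 1.94 CPM in 6-week WT, and 11.2 to 20.6 CPM in 12-week KO against 0 to 4.76 CPM in 12-week WT. Every KO library was above every WT library of its age. The log2 change was 2.88 ± 1.01 at 6 weeks (95% interval 0.74 to 5.02, adjusted p = 0.386, edgeR) and 3.38 ± 1.03 at 12 weeks (95% interval 1.20 to 5.56, adjusted p = 0.0979, edgeR), so neither passed. DESeq2 called both (adjusted p = 0.0499 at 6 weeks and 0.00463 at 12 weeks), and so did the edgeR fit without the filter on low counts (adjusted p = 0.00578 and 0.000196).

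Ctsa, the serine carboxypeptidase that protects the lysosomal sialidase Neu1 and the galactosidase Glb1, differed least among the cathepsins at 12 weeks. Its levels were 2887, 2551, 2905 and 2474 CPM in 6-week KO libraries, against 2114, 2204, 2338 and 2049 CPM in 6-week WT. In 12-week KO libraries they were 2512, 2409, 2319 and 2634 CPM, against 1778, 2074, 1913 and 1904 CPM in 12-week WT. The distance between the groups was small but without overlap at both ages. At 6 weeks the log2 change was 0.31 ± 0.07 (95% interval 0.16 to 0.47, adjusted p = 0.0678, edgeR), and at 12 weeks it was 0.36 ± 0.07 (adjusted p = 0.0116, edgeR). DESeq2 called it at 6 weeks (adjusted p = 0.00276), and so did the edgeR fits with RLE size factors, with library size only and without the sex term (adjusted p = 0.0328 to 0.0483). At 12 weeks the call was lost without WT replicates 3 and 8 together (adjusted p = 0.125) and with a term for the replicate number (adjusted p = 0.249, edgeR).

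The inhibitor went another way. Cst3 had 27207, 21634, 26522 and 23947 CPM in 6-week KO libraries, against 24918, 24995, 28167 and 23407 CPM in 6-week WT, and the libraries of the groups interleaved. At 12 weeks it had 24036, 21332, 22926 and 26168 CPM in KO, against 29913, 27850, 27542 and 28798 CPM in WT, and every KO library lay below every WT library. The log2 change at 6 weeks was -0.03 ± 0.08 with a 95% interval of -0.20 to 0.14 (adjusted p = 1.00, edgeR), so a change of more than 0.20 on this scale in either direction lies outside the interval. At 12 weeks it was -0.27 ± 0.08 with a 95% interval of -0.44 to -0.11 and did not pass (adjusted p = 0.08, edgeR). It passed with library size only (adjusted p = 0.0415), without the filter on low counts (adjusted p = 0.000447) and without KO replicate 4 (adjusted p = 0.0461), and over all 8 fits with a library left out the adjusted p ran to 0.264.

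Set against the cysteine cathepsins it can bind, Cst3 transcripts were fewer in KO. In CPM per kb, Cst3 over the sum of the 6 cysteine cathepsins was 1.98 ± 0.0740 in 6-week KO and 2.94 ± 0.0793 in 6-week WT, and 1.64 ± 0.249 in 12-week KO and 3.21 ± 0.123 in 12-week WT (SD, n = 4 each). The ratio reached at most 2.04 in 6-week KO libraries, against at least 2.84 in 6-week WT. It reached at most 1.81 in 12-week KO libraries, against at least 3.07 in 12-week WT. KO and WT libraries thus lay apart at both ages, and KO replicate 2 at 12 weeks had the lowest ratio. This ratio is of transcripts, depends on the lengths used and is given as a description with no test, because its parts were tested above. Within the 6 cysteine cathepsins, Ctss made up 65.9% ± 0.407 of the CPM per kb in 6-week KO and 69.4% ± 1.82 in 6-week WT, and 67.0% ± 1.52 in 12-week KO and 70.6% ± 1.23 in 12-week WT. The share of Ctsb was 10.2% ± 0.0715 in 6-week KO and 8.08% ± 0.553 in 6-week WT, and 9.96% ± 0.611 in 12-week KO and 7.12% ± 0.215 in 12-week WT.

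**Figure D3:**
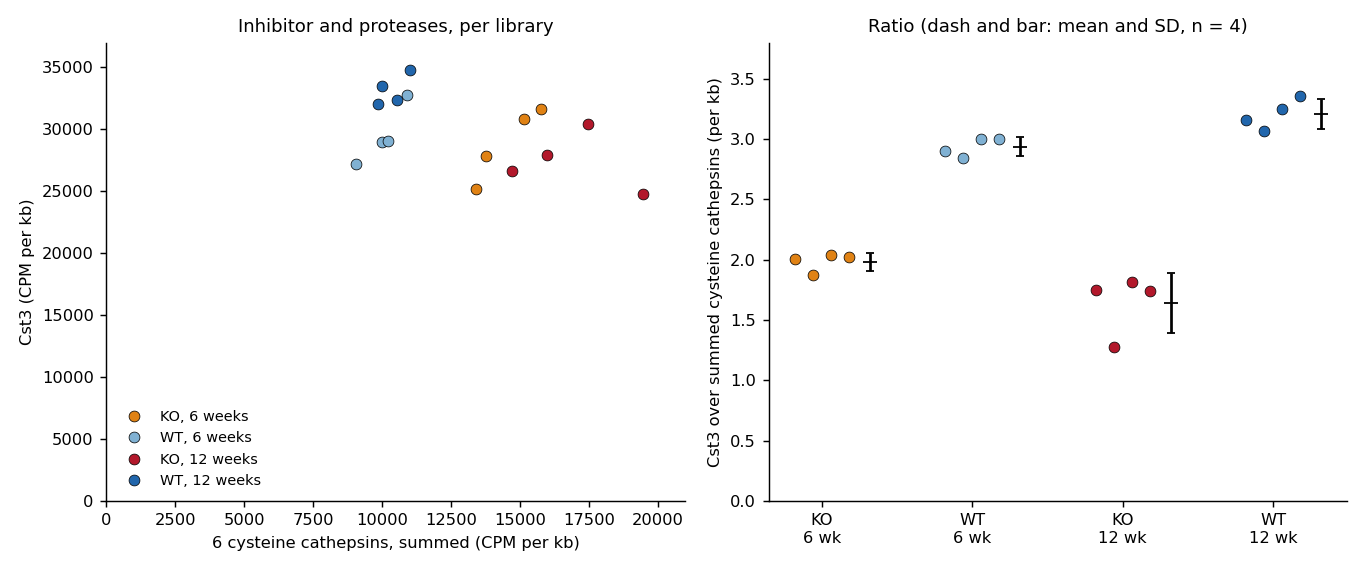
Left, Cst3 against the summed 6 cysteine cathepsins in CPM per kb, with 1 point per library; right, their ratio by group with the mean and SD of 4 libraries. KO libraries lie to the right of WT libraries on the left panel, and their ratio is 1.27 to 2.04, against 2.84 to 3.35 in WT.

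The comparison of 12 with 6 weeks asked whether these genes change with age within a genotype. In KO 0 of the 10 genes passed the threshold, against 0.0234% of all genes tested, and in WT 0 of the 10 passed, against 0.0117% of all genes (edgeR). At an unadjusted p under 0.05 there were 3 members in KO (Ctsh, Ctss and Ctsz, all higher at 12 weeks) and 3 in WT. Those in WT were Ctsd (log2 change -0.23, 95% interval -0.43 to -0.03), Ctsa (-0.19, -0.35 to -0.03) and Cst3 (0.17, 0.005 to 0.34). In KO the log2 changes of Ctsd, Ctsa and Cst3 were -0.08, -0.13 and -0.07, with intervals that include 0. DESeq2 called 1 member in KO, against 270 of 7479 genes, and 0 in WT, against 152 of 16804 genes. Ctsh was the member DESeq2 called in KO (adjusted p = 0.00599): it had 586 to 817 CPM in 12-week KO against 535 to 578 CPM in 6-week KO, with no overlap, and a log2 change of 0.38 ± 0.10 (95% interval 0.17 to 0.59, adjusted p = 0.212, edgeR). Ctsh also did not overlap in WT, with 477 to 524 CPM at 12 weeks against 416 to 465 CPM at 6 weeks and a log2 change of 0.14 ± 0.10. Ctsb in WT had 3263 to 3702 CPM at 12 weeks against 3704 to 3991 CPM at 6 weeks, a log2 change of -0.14 ± 0.08. In KO 1 member thus lay higher at 12 weeks without overlap, against 3.05% of all genes higher and 3.51% lower. In WT 1 member lay higher and 1 lower, against 2.31% of all genes higher and 3% lower. Ctss had 13180 to 18000 CPM in 12-week KO against 11972 to 14195 CPM in 6-week KO, a log2 change of 0.25 ± 0.10 (95% interval 0.04 to 0.45), and passed in KO only without the filter on low counts (adjusted p = 0.0308, edgeR). Over all 10 members the log2 change lay between -0.13 and 0.92 in KO and between -0.23 and 0.42 in WT, the upper ends being those of Ctse.

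**Figure D4:**
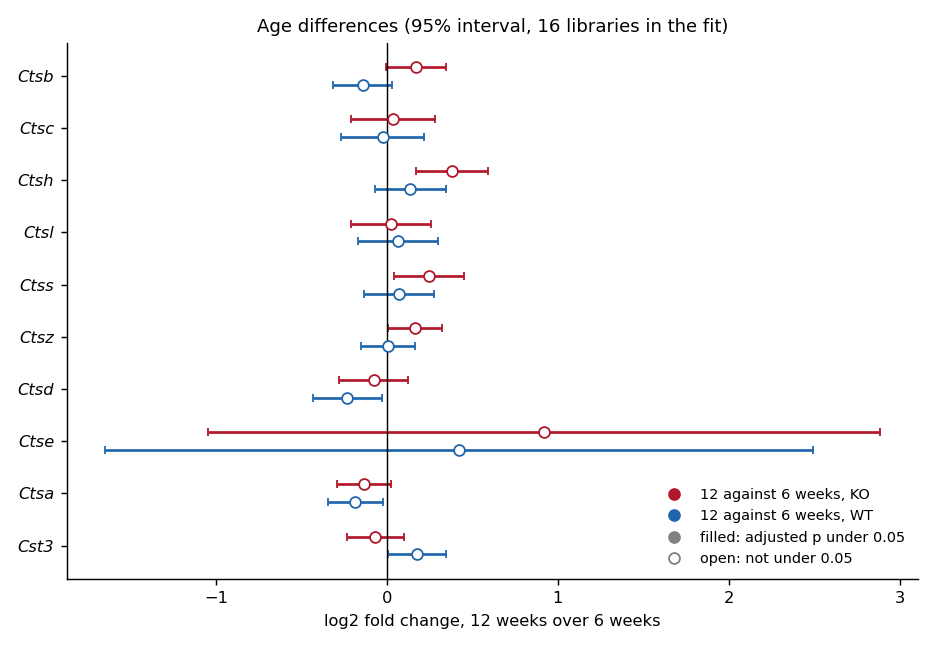
Log2 fold change of 12 over 6 weeks in KO and in WT from the same fit, with a 95% interval, for each of the 10 genes. No point is filled, and the values of the 9 genes other than Ctse lie between -0.23 and 0.38.

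Whether the genotype effect itself differed between 12 and 6 weeks was tested as an interaction. By edgeR 0 of the 10 genes passed, against 0.00585% of all genes. DESeq2 called 0 as well, against 55 of 16804 genes. At an unadjusted p under 0.05 there were 2 members. These were Ctsb, with an interaction of 0.31 ± 0.11 (log2, 95% interval 0.07 to 0.55), and Cst3, with -0.24 ± 0.11 (95% interval -0.48 to -0.01), both with an adjusted p of 1 by edgeR. For Ctsl the interaction was -0.04 ± 0.15 with an interval of -0.37 to 0.28. So the larger number of members past the threshold at 12 than at 6 weeks is not shown to be a larger effect of the genotype.

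Other genes of the pathway were taken from 6 lists, which held 55 genes; those below the filter on low counts, among them Ctsk and Ctsg, were not tested. Of the other cathepsins and the asparaginyl endopeptidase legumain, 4 were tested and 0 passed at either age by edgeR or DESeq2, with 0 at an unadjusted p under 0.05 at 6 weeks and 1 at 12 weeks. Lgmn, the legumain gene, whose product cleaves cathepsin precursors, had 13547 ± 904 CPM in 6-week KO and 13021 ± 1670 CPM in 6-week WT, a log2 change of 0.06 ± 0.08, and 12697 ± 798 CPM in 12-week KO and 11970 ± 989 CPM in 12-week WT, a log2 change of 0.09 ± 0.08. Ctsf, another lysosomal cysteine cathepsin, had 299 ± 12.8 CPM in 6-week KO and 257 ± 24.0 CPM in 6-week WT, and 294 ± 34.7 CPM in 12-week KO and 241 ± 22.5 CPM in 12-week WT (SD, n = 4 each).

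Among other inhibitors 6 were tested, of which 1 rose at 6 weeks and 2 at 12 weeks by edgeR. DESeq2 called 2 at each age, and 3 had an unadjusted p under 0.05 at each age. Cst7, which encodes cystatin F, an inhibitor kept in endosomes and lysosomes and known to hold back cathepsin C, had 48.2 ± 14.0 CPM in 6-week KO and 4.52 ± 2.59 CPM in 6-week WT, and 71.2 ± 9.01 CPM in 12-week KO and 4.45 ± 2.33 CPM in 12-week WT. Its log2 change was 3.45 ± 0.39 at 6 weeks (adjusted p = 0.000242, edgeR) and 4.02 ± 0.39 at 12 weeks (adjusted p = 2.67e-05, edgeR). Cstb, the cytosolic inhibitor stefin B, had 72.6 ± 9.33 CPM in 12-week KO and 43.2 ± 7.31 CPM in 12-week WT, a log2 change of 0.75 ± 0.19 (adjusted p = 0.0442, edgeR), and at 6 weeks 0.79 ± 0.19, which did not pass (adjusted p = 0.0727, edgeR). Cst7 thus passed the test at both ages and Cst3 at neither; the difference between them was not tested.

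Of the 6 lists, partners and substrates gave the most calls, 5 of 11 higher at 6 weeks and 7 of 11 at 12 weeks, with 0 lower (edgeR). Among all genes tested, 0.796% and 2.03% were higher. DESeq2 called 9 and 7 of the list, and 10 and 9 had an unadjusted p under 0.05. The list holds Cd74 and the MHC class II genes H2-Aa, H2-Ab1, H2-Eb1, H2-DMa and H2-DMb1, beside Neu1, Glb1, Psap, Grn and App. Cd74, the invariant chain that Ctss trims, had 710 ± 64.7 CPM in 6-week KO and 147 ± 36.8 CPM in 6-week WT, and 1041 ± 183 CPM in 12-week KO and 118 ± 31.2 CPM in 12-week WT. The log2 change of Cd74 was 2.26 ± 0.20 at 6 weeks (adjusted p = 4.65e-05, edgeR) and 3.14 ± 0.21 at 12 weeks (adjusted p = 4.69e-07, edgeR). H2-Ab1, a chain of MHC class II, had 81.5 ± 9.84 CPM in 6-week KO and 20.2 ± 10.6 CPM in 6-week WT, and 168 ± 25.6 CPM in 12-week KO and 21.4 ± 6.29 CPM in 12-week WT. The log2 change of H2-Ab1 was 2.02 ± 0.34 at 6 weeks (adjusted p = 0.00637, edgeR) and 2.96 ± 0.35 at 12 weeks (adjusted p = 0.00015, edgeR). MHC class II genes are also made by border-associated macrophages, whose markers were higher in KO as given above. Psap, the precursor of the saposins that assist lipid breakdown, rose by a log2 change of 0.51 ± 0.07 at 6 weeks (adjusted p = 0.00179, edgeR) and 0.62 ± 0.07 at 12 weeks (adjusted p = 0.000151, edgeR). Grn, the precursor of the granulins, which cathepsins release in the lysosome, rose by 0.67 ± 0.10 at 6 weeks (adjusted p = 0.00215, edgeR) and 0.80 ± 0.10 at 12 weeks (adjusted p = 0.000229, edgeR). Of the partners of Ctsa, Glb1 had 130 ± 9.90 CPM in 6-week KO and 85.9 ± 13.6 CPM in 6-week WT, and 129 ± 9.09 CPM in 12-week KO and 74.9 ± 16.4 CPM in 12-week WT, without overlap at either age. Its log2 change was 0.60 ± 0.16 at 6 weeks, which did not pass (adjusted p = 0.14, edgeR), and 0.79 ± 0.16 at 12 weeks, which passed (adjusted p = 0.0122, edgeR). Neu1 did not pass at either age, with log2 changes of 0.24 ± 0.29 and 0.25 ± 0.29.

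The machinery around the proteases gave few calls. Of 6 genes of hydrolase sorting, 0 passed at either age by edgeR or by DESeq2, with 1 at an unadjusted p under 0.05 at 6 weeks and 0 at 12 weeks. At each age 5 of the 6 had a positive log2 change, with a median of 0.30 at 6 weeks and 0.39 at 12 weeks. The mannose 6-phosphate receptor M6pr had a log2 change of 0.12 ± 0.11 at 6 weeks and 0.22 ± 0.11 at 12 weeks. Of 5 transcription factors of lysosomal genes, 0 passed at either age by edgeR, 0 and 3 had an unadjusted p under 0.05 at 6 and 12 weeks, and DESeq2 called 0 and 1. Tfeb itself had 13.5 CPM in 6-week KO and 13.7 CPM in 6-week WT, and 5.05 CPM in 12-week KO and 12.5 CPM in 12-week WT, a log2 change of -1.30 ± 0.49 at 12 weeks (adjusted p = 0.211, edgeR). Mitf, a relative of Tfeb, differed in the other direction, with 26.3 CPM in 6-week KO and 21.2 CPM in 6-week WT, and 35.3 CPM in 12-week KO and 18.7 CPM in 12-week WT. Its log2 change at 12 weeks was 0.92 ± 0.30 without overlap of the groups and did not pass (adjusted p = 0.123, edgeR). Mitf did not have the largest rise of the 5 genes at 12 weeks, where log2 changes ran from -1.30 to 5.19. The other genes of this list were Tfe3, Tfec and Zkscan3. The value of 5.19 was among theirs and did not pass by edgeR. Of 15 genes of the proton pump that acidifies lysosomes, 0 passed at 6 weeks and 1 at 12 weeks, Atp6v1d, with 209 ± 45.9 CPM in KO and 140 ± 14.7 CPM in WT and a log2 change of 0.58 ± 0.14 (adjusted p = 0.043, edgeR). At 6 weeks 3 proton pump genes had an unadjusted p under 0.05 and DESeq2 called 0, and at 12 weeks these were 3 and 2. At each age 13 of the 15 had a positive log2 change, with a median of 0.16 at 6 weeks and 0.17 at 12 weeks. Over all genes tested the median was -0.02 and -0.03.

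**Figure D5:**
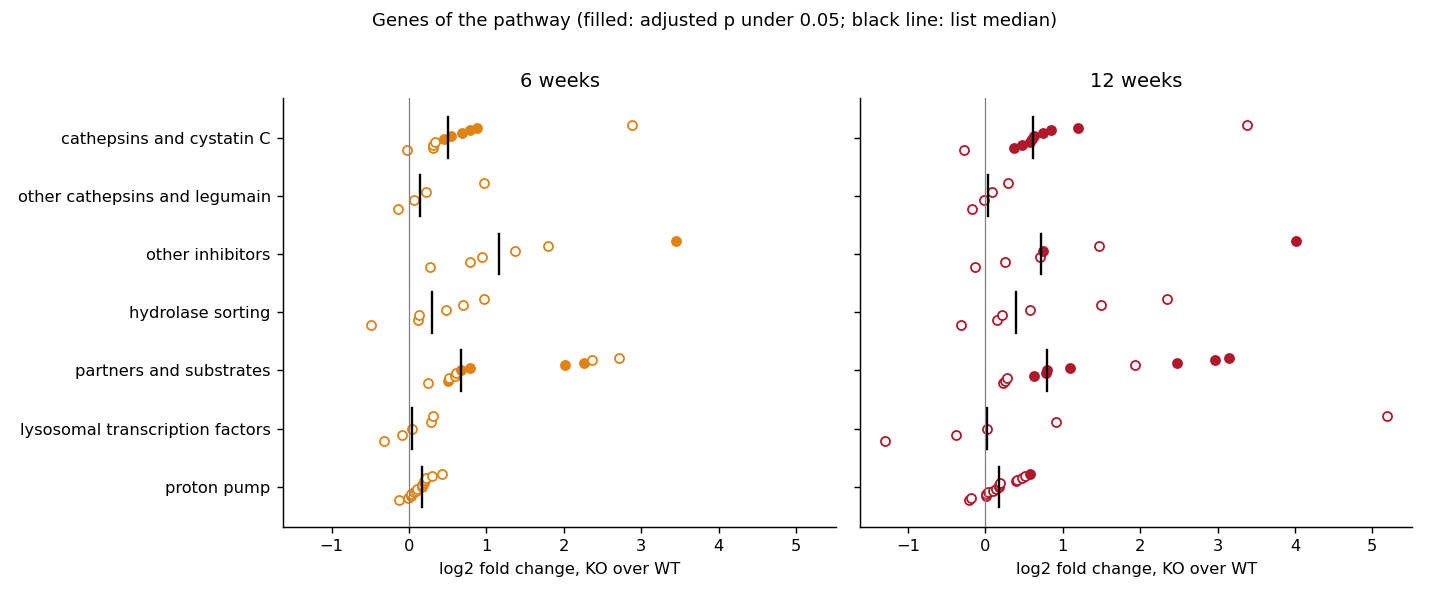
Log2 fold change of KO over WT at 6 weeks (left) and 12 weeks (right) for each tested gene of the cathepsin set and of 6 further lists, with the list median as a black line. Filled points pass an adjusted p of 0.05: they lie in the cathepsin set, the partners and substrates and the other inhibitors, with 1 proton pump gene at 12 weeks.

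The members were then described by the genes whose levels ran most alike over the 16 libraries, which mainly reflects the 4 groups they share. Among 9829 genes, the pattern most like that of Ctsb was that of Ctsz (Pearson r of log2 CPM = 0.989), followed by Il1rn (0.981), the interleukin-1 receptor antagonist, and Cd74 (0.978). After the group means were taken out, r between Ctsb and Ctsz was 0.889, that of Ctsb with Il1rn 0.618 and that with Cd74 0.346. Ctsc was most like Ctsb (0.936), Ctsh like Slamf9 (0.954), Ctsl like Il1rn (0.951), Ctss like B2m (0.959), the light chain of MHC class I, and Ctsa like Trf (0.958), the transferrin gene. Ctsd was most like C1qa (0.944), a chain of complement C1q, and Ctse like Gas2l3 (0.963). Cst3 was most like Cd53 (0.901) and Spcs2 (0.892), and its r with each of the 9 cathepsins was negative, from -0.330 with Ctsh to -0.545 with Ctsd. After the group means were taken out, r with Cst3 was positive for each of the 9 cathepsins, from 0.0511 for Ctsd to 0.643 for Ctsa.

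The counting does not state a strand, and some members overlap a gene on the other strand in the annotation of GRCm38: Ctsb overlaps Fdft1, Ctsz overlaps Nelfcd, and Ctsa overlaps Pltp and Neurl2. The highest level of any of these in a library was 143 CPM, for Pltp.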

How the data were processed

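The authors deposited raw counts per gene and library, which were used as they stand. Per the submitters' processing notes the build was GRCm39, and the tools named, without their role, were HTSeq 0.11.0, TopHat, FastQC 0.11.9, Picard 2.13.2, SAMtools 1.10 and cutadapt 2.10. No strand setting or annotation release was given. Genes were kept by filterByExpr (minimum count 10), scaled by TMM and fitted in edgeR 4.0.16 (R 4.3.3, limma 3.58.1) with terms for 4 groups and for sex over all 16 libraries, and tested two-sided by quasi-likelihood with Benjamini-Hochberg adjustment. The common dispersion was 0.421. SE is the absolute log2 change over the square root of F, and intervals are at a level of 0.95. The fit was tested on simulated counts: in the 6-week comparison over 16187 genes it recovered 12.9% of log2 changes of 1 and 42.6% of changes of 2. The changed genes were drawn at random from all genes kept, so these shares are not specific to the levels and spread of the members. Levels per length use GENCODE M21 transcripts (GRCm38) by gene ID. Libraries of a group differed by more than sampling noise. With these totals, 3 counts are 0.135 to 0.381 CPM in a library. Alternatives were another scaling, no filter, DESeq2 1.42.0, no sex term, fewer groups, a replicate block and libraries left out. The members, the lists and the rule for naming were chosen with earlier results of these data known: all 10 members, listed genes past the threshold (at most 4 per list), and the 3 most alike genes of each member with a mean of at least 5 CPM; Lgmn, Ctsf, Glb1, Neu1, M6pr, Tfeb and Mitf were named after their values were seen.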

Additional observations from a re-analysis of the deposited data

How the results depend on the processing

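Of the calls by edgeR, those of Ctsb, Ctsz and Ctsl at 6 weeks and of all 8 members at 12 weeks held in every fit that left out 1 library, and those of Ctsb, Ctsz and Ctsl at both ages also held under each other alternative run. With 1 library left out, 3 to 4 members were higher in KO at 6 weeks and 82 to 100 genes of all passed, and 0 to 1 members were lower in KO at 12 weeks (328 to 464 genes of all). The same fits gave 1 to 3 genes of all between ages in KO, 1 to 4 between ages in WT and 1 to 2 for the difference between genotype effects. The cause of these shifts was not tested. With library size only, 1 member (Cst3) was lower at 12 weeks and 2 genes of all passed for the difference between genotype effects. Without the filter on low counts, 353 genes passed at 6 weeks with 7 members higher, and 1073 at 12 weeks with 9 higher and 1 lower (Cst3), 204 between ages in KO with 1 member higher (Ctss), 194 between ages in WT and 132 for the difference. With DESeq2 these were 366 (8 members higher), 1158, 270 (1 member higher, Ctsh), 152 and 55. Without the sex term, 16 genes passed between ages in KO. With only the 2 groups compared, 204 genes passed at 12 weeks and 0 between ages in either genotype. Without 12-week WT replicates 3 and 8, 307 passed at 12 weeks and 2 for the difference.

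With the replicate number as a replicate block, 123 genes and 4 members passed at 6 weeks; at 12 weeks 131 genes and 3 members (Ctsb, Ctsz and Ctsl) passed, and 0 genes between ages in either genotype. Deviations from the group means correlated weakly between same-numbered libraries (-0.0246 to 0.0623). Between KO and WT at 6 weeks, replicates 1 and 3 exceeded the correlations with other numbers (0.0365 against at most 0.0255, and 0.0623 against at most 0.0258). Replicates 2 and 4 did not. The 12-week groups share only the numbers 3 and 4. Correlations this small over all genes cannot decide whether the number is a pairing, and the labels do not say.

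Changes of sign occurred in values that passed no test; those of Ctse were not near 0 (0.42 between ages in WT and 0.50 for the difference between genotype effects). With 1 library left out, the log2 change of Cst3 at 6 weeks ran from -0.0857 to 0.0313. Between ages in WT, Ctsc ran from -0.113 to 0.0060, Ctsl from -0.0349 to 0.121, Ctss from -0.0125 to 0.107, Ctsz from -0.0335 to 0.0364 and Ctse from -0.521 to 0.945. Between ages in KO, Ctsc ran from -0.0274 to 0.139 and Ctsl from -0.0073 to 0.0990. For the difference between genotype effects Ctsl ran from -0.0794 to 0.0924. Under the replicate block the values were -0.0756 for Ctsc and -0.0368 for Ctsl between ages in KO, and -0.0611 for Ctsc and -0.584 for Ctse for the difference. Between ages in WT, Ctsc was at 0.0203 with library size only and Ctsz at -0.0173 without the filter. Without replicates 3 and 8 of 12-week WT, Ctsl was at -0.149, Ctsz at -0.0239 and Ctse at -0.0088 between ages in WT, and Ctsl at 0.172 for the difference. Values of Ctse rest on few counts, with 0 to 44 per library in WT. The library with 0 was 5_6 of 12-week WT, which had the largest total (22142972). Places by level per length were compared under 2 other lengths, chosen after seeing the data; places changed for Ctsh and Ctsl in 6-week KO, and for Ctsd with Ctsz and Ctsa with Ctsc in 12-week KO.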
